A study of Mus musculus with 12 samples.

Results

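The genes that mark the layers of the cortex were examined in RNA-Seq libraries of mouse cortex. The 9 layer genes were taken by symbol, 4 of the upper layers (Cux1, Cux2, Rorb and Rasgrf2) and 5 of the deep layers (Fezf2, Foxp2, Tle4, Nxph4 and Cplx3), out of the 50563 genes in the count table. All 9 passed the filter on low counts and were among the 15688 genes tested. The 12 mice were aged E4FAD mice, genotype APOE4+/+, 5FAD-/+, so every mouse, controls included, carried human APOE4 in place of the mouse gene together with familial Alzheimer's disease transgenes. In this model the transgenes are driven by the Thy1 promoter in neurons, and no mouse without them was part of the comparison. The CTRL group held 7 mice given vehicle by oral gavage, 2 of them 12 months old and 5 of them 14 months old. The DPAn-6 group held 5 mice given the omega-6 fatty acid docosapentaenoic acid by daily gavage, 2 of them 12 months old and 3 of them 14 months old. Both groups received the antioxidants of the vehicle and held both sexes but which mice were female is not in the labels. Each library was made from the cortex of 1 mouse, dissected from 1 hemisphere after perfusion.

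Excitatory neurons of the cortex are born in sequence and settle in layers, and the transcription factors they keep in adult life mark their layer and their targets. Neurons of the upper layers project mainly within the cortex, those of layer V send axons to subcortical targets, those of layer VI mostly to the thalamus, and layer VIb is a thin deep remnant of the subplate. As far as these markers hold to certain layers, their balance in bulk tissue follows the amount of each layer dissected and RNA per neuron.

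Library totals lay between 15339098 and 19500154 counts for CTRL mice, around a median of 17449553, and between 15208803 and 26520251 for DPAn-6 mice, around 18400132. Levels are given as log2 CPM, the log2 of the count scaled to a common TMM-adjusted library total, with a pseudocount of 0.5. Slc17a7, the vesicular glutamate transporter of cortical excitatory neurons, was high in all mice (CTRL 10.77 ± 0.22 log2 CPM, DPAn-6 10.79 ± 0.06, both SD). This marker of excitatory neurons was present in every mouse, and lists of other regions are given below. One library stood apart. In CTRL replicate 3, genes with more than 6000 exonic bases lay 0.46 log2 units higher than genes with fewer than 2000, each measured as a deviation from the mean over mice, against −0.17 to 0.06 in the other 11 mice. Fold changes without this mouse are given below for each layer gene.

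Between the layer genes, levels can be compared only per length. In log2 RPKM, which divides the count by exonic length, the order over the 12 mice was Rasgrf2 (4.77 ± 0.19, SD), Cux2 (4.25 ± 0.16), Fezf2 (3.65 ± 0.20), Tle4 (3.52 ± 0.20), Cux1 (3.0 ± 0.09), Cplx3 (2.73 ± 0.11), Rorb (2.53 ± 0.28), Nxph4 (1.07 ± 0.22) and Foxp2 (−0.21 ± 0.33). Fezf2 and Tle4 did not separate, since Fezf2 was the higher of the pair in 7 of 12 mice. Tle4 was above Cux1 in 11 of 12 mice and Cplx3 above Rorb in 10 of 12, and every other gene was above the next in all 12. The length used is the union of all annotated exons of a gene, and the order was not examined with other lengths. By this measure the deep markers were not uniformly lower than the upper ones. Fezf2 and Tle4 lay above Cux1 and Rorb on average, and Nxph4 and Foxp2 closed the order.

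None of the 9 layer genes differed between DPAn-6 and CTRL at an adjusted p below 0.05 by edgeR's quasi-likelihood test, beside 1.55% of all genes tested (0.408% higher and 1.14% lower). At an unadjusted p below 0.05 there were 3 of the 9, beside 14.5% of all genes (5.51% higher and 9.02% lower). Cux1 and Rasgrf2 were the 2 on the lower side and Tle4 the 1 on the higher side. This count was 1 without CTRL replicate 5 or 6 or without DPAn-6 replicate 2, 3 or 4, and 0 without DPAn-6 replicate 5. The fitted log2 fold changes nonetheless fell on both sides of 0 by layer. All 4 upper layer genes were below 0 (median −0.11) and all 5 deep layer genes above 0 (median 0.14), while the median of all genes tested was −0.005. The signs are a description, without a test, and 2 of them (Cux1 and Rorb) turned under settings given below with each gene, as did that of Fezf2 in the 14-month mice. In the 12-month mice, with 2 mice a group, the difference of means was 0.26 for Rorb and −0.04 for Cplx3. In the 14-month mice these were −0.18 and 0.11. In bulk tissue, fewer cells of a layer and less of the RNA per cell cannot be told apart.

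**Figure D1:**
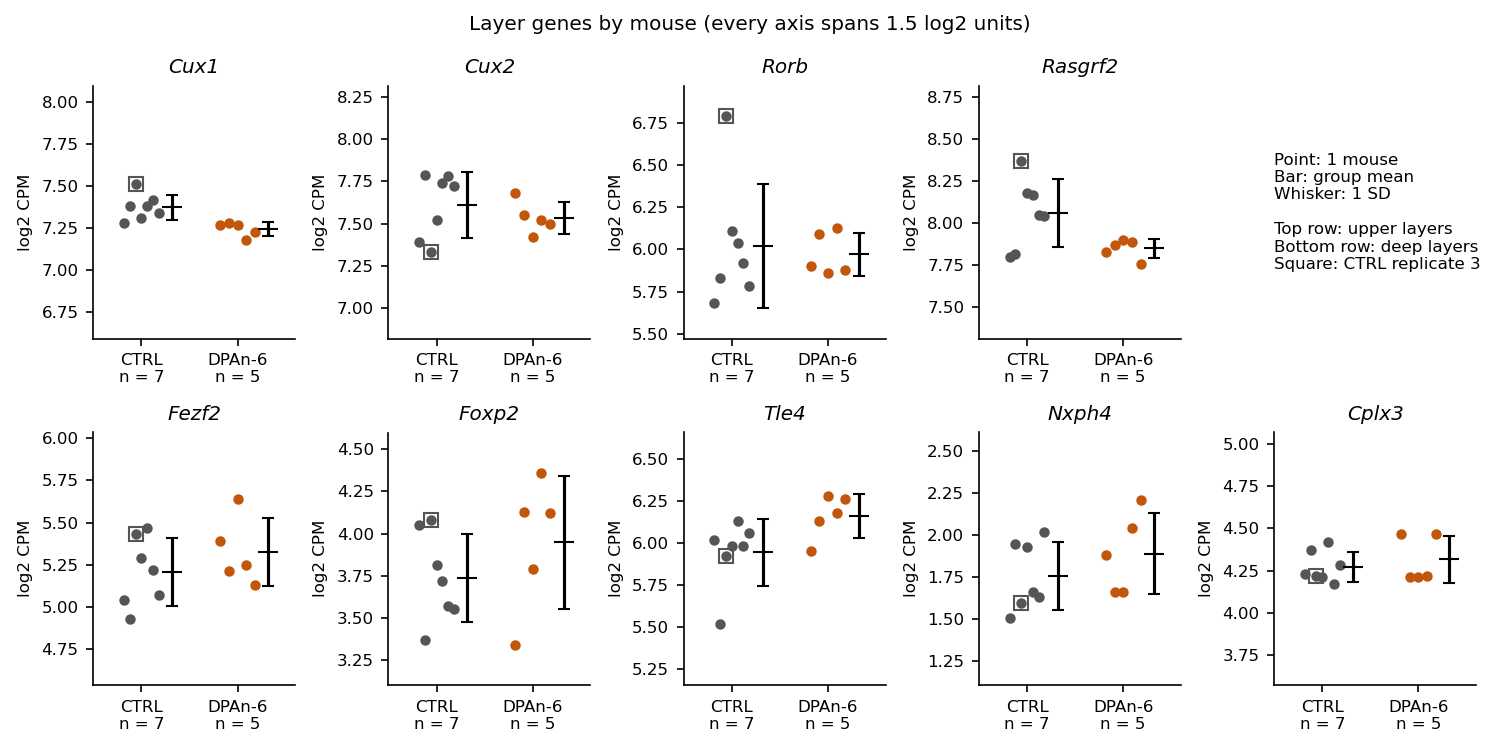
Level of each layer gene in each mouse, in log2 CPM on axes that each span 1.5 log2 units, with CTRL (n = 7) in grey and DPAn-6 (n = 5) in orange; the bar is the group mean, the whisker 1 SD and the square CTRL replicate 3. The groups overlap in 8 of the 9 genes, and in Cux1 they are separated by less than 0.001 log2 units.

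Among the upper layer genes, Cux1 and Cux2 encode homeodomain transcription factors that shape the dendrites and spines of neurons in layers II to IV. Cux1 (ENSMUSG00000029705; chromosome 5, 136248135 to 136567490, minus strand) ranged from 7.28 to 7.51 log2 CPM in CTRL with a median of 7.38, and measured 7.27, 7.28, 7.27, 7.18 and 7.23 in DPAn-6 replicates 1 to 5. All 5 DPAn-6 mice lay below all 7 CTRL mice, which was the case in either direction for 3.03% of all genes tested (1.35% with DPAn-6 higher and 1.68% with DPAn-6 lower). The gap between the groups was only 0.000491 log2 CPM, and without TMM the groups overlapped. Mean levels were 7.38 ± 0.08 (SD, n = 7) and 7.25 ± 0.04 (SD, n = 5), with an exact permutation p of 0.00379 (two-sided, 792 splits, smallest possible 0.00126). The log2 fold change was −0.14 (standard error 0.06, 95% interval −0.25 to −0.02), with edgeR p-values of 0.028 unadjusted and 0.271 adjusted over all genes. It was −0.11 without CTRL replicate 3, and the unadjusted p was above 0.05 without CTRL replicate 5 or 6 or any 1 of the DPAn-6 mice (0.0501 to 0.0983). When each library's trend on exonic length was removed, an alternative chosen after seeing the data, it was 0.02 (standard error 0.07). Within the 14-month mice the difference of means was −0.14 (exact permutation p = 0.0536, where the smallest that 56 splits allow is 0.0179), and in the 12-month mice it was −0.09. An antisense gene that overlaps exons of Cux1, Gm16599, had 0 to 5 counts.

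Cux2 (ENSMUSG00000042589; chromosome 5, 121856366 to 122050102, minus strand) spanned 7.33 to 7.79 log2 CPM in CTRL, with a median of 7.72, and measured 7.68, 7.55, 7.42, 7.52 and 7.50 in the DPAn-6 mice. Every DPAn-6 mouse lay inside the CTRL range. Its log2 fold change was −0.09 (standard error 0.09, 95% interval −0.29 to 0.10, edgeR adjusted p = 0.725). Without CTRL replicate 3 it was −0.14 (standard error 0.07), without CTRL replicate 2, 5 or 6 or DPAn-6 replicate 3 it was −0.06, and with the length trend removed −0.02. CTRL replicate 3 was the lowest of all 12 mice for Cux2, whereas it was the highest for Cux1, Rorb and Rasgrf2.

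Rorb encodes the retinoid-related orphan nuclear receptor that marks layer IV, where it takes part in forming the sensory barrels. Rorb (ENSMUSG00000036192; chromosome 19, 18930605 to 19111196, minus strand) ran from 5.68 to 6.79 log2 CPM in CTRL with a median of 5.92, and measured 5.90, 6.09, 5.86, 6.13 and 5.88 in DPAn-6. CTRL replicate 3 alone set the top of that range, the next CTRL mouse being at 6.11. By edgeR the log2 fold change was −0.09 (standard error 0.16, 95% interval −0.42 to 0.24, edgeR adjusted p = 0.85) and 0.07 (standard error 0.08) without that mouse. It was also on the other side of 0 with the striatum list or the choroid plexus gene Ttr as covariate (0.02 in both), with sample weights in limma-voom (0.07) and with the length trend removed (0.01). The direction of Rorb was therefore not settled.

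Rasgrf2 encodes a guanine nucleotide exchange factor for Ras and Rac that couples calcium and glutamate receptor signals to the Ras pathway, and it labels layers II and III. Rasgrf2 (ENSMUSG00000021708; chromosome 13, 91880400 to 92131656, minus strand) ranged from 7.80 to 8.37 log2 CPM in CTRL, with a median of 8.05, and measured 7.83, 7.87, 7.90, 7.89 and 7.76 in DPAn-6. The DPAn-6 mice lay close together and all 5 were below the CTRL mean, but CTRL replicates 1 and 2 were at the same low level, so the groups overlapped. The means were 8.06 ± 0.21 (SD, n = 7) and 7.85 ± 0.06 (SD, n = 5), with an exact permutation p of 0.0543. The log2 fold change of −0.23 (standard error 0.09, 95% interval −0.42 to −0.04) corresponds to 0.85 times the CTRL level, with an unadjusted edgeR p of 0.0218 and an adjusted p of 0.242. It was −0.18 (standard error 0.07) without CTRL replicate 3, and its unadjusted p was above 0.05 without CTRL replicate 5 (0.0514) or DPAn-6 replicate 1 (0.0518) or 5 (0.068). The difference of means was −0.30 in the 14-month mice (exact permutation p = 0.107) and −0.02 in the 12-month mice. Among the layer genes, Rasgrf2 had the most alternatives with an unadjusted p below 0.05 (19 of 25), and its lowest adjusted p under any of them was 0.0798.

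Among the deep layer genes, Fezf2 encodes the zinc finger factor that directs neurons of layer V to a subcortical fate. Fezf2 (ENSMUSG00000021743; chromosome 14, 12342094 to 12348189, minus strand) ranged from 4.93 to 5.47 log2 CPM in CTRL, with a median of 5.22, and measured 5.39, 5.21, 5.64, 5.25 and 5.13 in DPAn-6. Only DPAn-6 replicate 3 was above all CTRL mice. The log2 fold change was 0.11 (standard error 0.11, 95% interval −0.12 to 0.34, edgeR adjusted p = 0.723). It was 0.03 without DPAn-6 replicate 3, 0.07 without CTRL replicate 2 and 0.14 without CTRL replicate 3. The difference of means was 0.39 in the 12-month mice, with 2 mice a group, and −0.03 in the 14-month mice (exact permutation p = 0.839). The test of this difference between ages did not pass (interaction −0.446, unadjusted p = 0.0592, adjusted p = 0.905 by edgeR), and none of the 9 genes had a lower adjusted p for it.

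Foxp2 and Tle4 mark neurons of layer VI that project to the thalamus, the first as a forkhead transcription factor and the second as a Groucho family corepressor. Foxp2 (ENSMUSG00000029563; chromosome 6, 14901349 to 15441977, plus strand) ranged from 3.37 to 4.08 log2 CPM in CTRL with a median of 3.72, and measured 3.34, 4.13, 3.79, 4.36 and 4.12 in DPAn-6. The DPAn-6 mice held both ends of the range, with 3 above and 1 below all CTRL mice. A log2 fold change of 0.23 (standard error 0.16, 95% interval −0.12 to 0.58) had an edgeR adjusted p of 0.59. It was 0.36 without DPAn-6 replicate 1 (unadjusted p = 0.0274, adjusted p = 0.335), 0.13 without DPAn-6 replicate 4 and 0.28 without CTRL replicate 3, and with the length trend removed it was 0.36 (unadjusted p = 0.0242, adjusted p = 0.25). Foxp2 is also made by neurons of the striatum, whose 14 list genes had a mean level of 4.02 to 5.45 log2 CPM in CTRL and 3.96 to 5.12 in DPAn-6, and with that list as covariate the log2 fold change was 0.14 (standard error 0.17). Its lowest mouse, DPAn-6 replicate 1, was also the lowest for the striatum list. Across the 12 mice the relation of Foxp2 to that list did not pass (r = 0.433 and rho = 0.175 with each group centred, exact permutation p = 0.181 for r and 0.595 for rho, adjusted p of r = 0.251 over 18 relations; r = 0.028 without the 2 farthest mice, 0.39 in the 14-month mice, and 0.647 without CTRL replicate 3, with an unadjusted exact permutation p of 0.0459).

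Tle4 (ENSMUSG00000024642; chromosome 19, 14448150 to 14598051, minus strand) was the deep layer gene with the lowest p. It ranged from 5.52 to 6.13 log2 CPM in CTRL, with a median of 5.98, and measured 5.95, 6.13, 6.28, 6.18 and 6.26 in DPAn-6. The number of DPAn-6 mice above all CTRL mice was 3, and CTRL replicate 2 was far below the other 6 of its group, which lay between 5.92 and 6.13. The means were 5.95 ± 0.20 (SD, n = 7) and 6.16 ± 0.13 (SD, n = 5), with an exact permutation p of 0.0455. Its log2 fold change was 0.20 (standard error 0.09, 95% interval 0.01 to 0.40), or 1.15 times the CTRL level, with an unadjusted edgeR p of 0.0446 and an adjusted p of 0.328. Without CTRL replicate 2 it was 0.14 (unadjusted p = 0.0615) and without CTRL replicate 3 it was 0.19. The unadjusted p was also above 0.05 without CTRL replicate 4 or 6 or DPAn-6 replicate 2, 3, 4 or 5 (0.0568 to 0.109). The difference of means was 0.20 in the 14-month mice (exact permutation p = 0.232) and 0.19 in the 12-month mice.

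Nxph4 and Cplx3 mark layer VIb. Nxph4 encodes a neurexophilin, a secreted ligand of neurexins, and Cplx3 a complexin that regulates vesicle fusion at the synapse. Nxph4 (ENSMUSG00000040258; chromosome 10, 127525473 to 127534559, minus strand) had 44 to 124 counts per mouse, the fewest of the 9, and so the widest counting error. It ranged from 1.51 to 2.02 log2 CPM in CTRL with a median of 1.66, and measured 1.88, 1.66, 1.66, 2.04 and 2.21 in DPAn-6, with a log2 fold change of 0.14 (standard error 0.14, 95% interval −0.17 to 0.44, edgeR adjusted p = 0.733). This was 0.05 without DPAn-6 replicate 5 and 0.11 without CTRL replicate 3. Cplx3 (ENSMUSG00000039714; chromosome 9, 57599992 to 57606281, minus strand) ranged from 4.17 to 4.42 in CTRL with a median of 4.23, and measured 4.47, 4.21, 4.21, 4.22 and 4.47 in DPAn-6, with a log2 fold change of 0.04 (standard error 0.08, 95% interval −0.13 to 0.22, edgeR adjusted p = 0.864). That of Cplx3 was 0.03 without CTRL replicate 3, and between 0.01 (without DPAn-6 replicate 1 or 5) and 0.08 (without CTRL replicate 5 or DPAn-6 replicate 2 or 3) over all mice left out. Both sets of values overlapped between the groups.

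**Figure D2:**
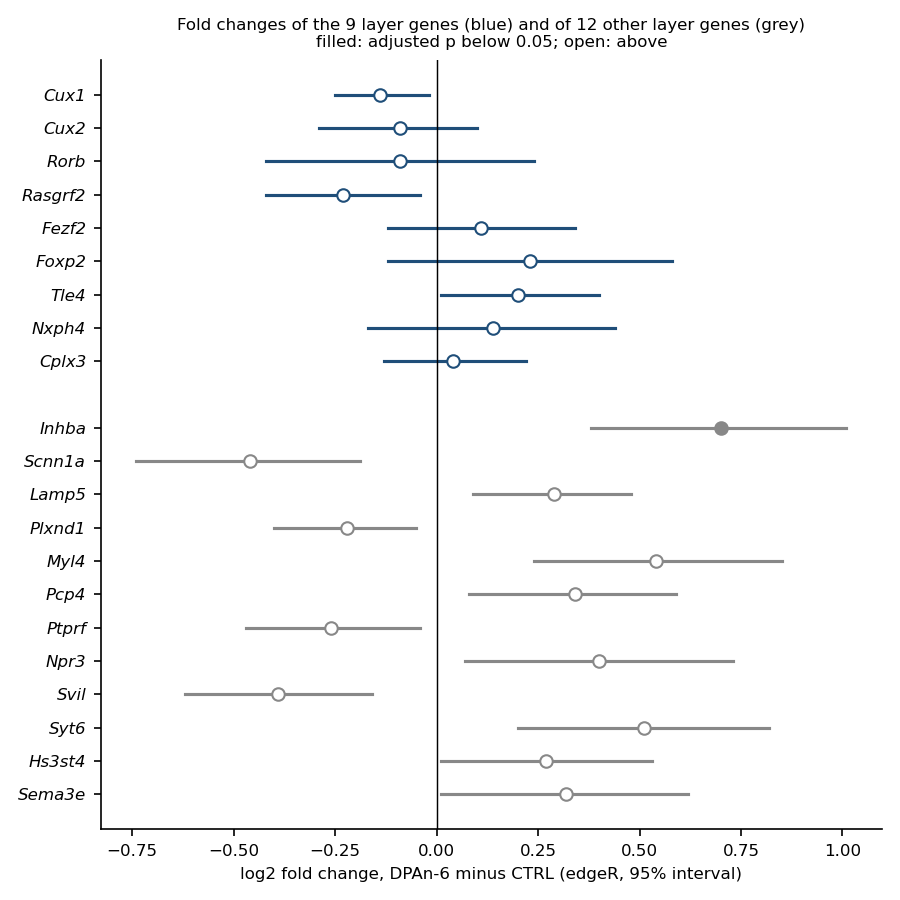
Log2 fold change of DPAn-6 against CTRL with its 95% interval from edgeR, for the 9 layer genes (blue) and 12 other layer genes (grey); filled points have an adjusted p below 0.05. Only Inhba is filled, and the intervals of 6 of the 9 layer genes include 0.

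The mean of the 5 deep genes minus that of the 4 upper genes gives 1 value per mouse. In CTRL it was −2.87, −3.18, −3.25, −3.04, −3.05, −3.18 and −3.02 log2 units in replicates 1 to 7, and in DPAn-6 it was −2.97, −2.93, −2.80, −2.77 and −2.66 in replicates 1 to 5. All 5 DPAn-6 mice were above 6 of the 7 CTRL mice, and the groups overlapped through CTRL replicate 1. Group means were −3.08 ± 0.13 (SD) for the 7 CTRL mice and −2.82 ± 0.13 (SD) for the 5 DPAn-6 mice, a difference of 0.26, for which no test is given because the genes were chosen together. It was 0.23 without CTRL replicate 3 and 0.29 in the 14-month mice. Taken apart, the mean of the upper genes differed by −0.12 (DPAn-6 minus CTRL) and that of the deep genes by 0.14.

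**Figure D3:**
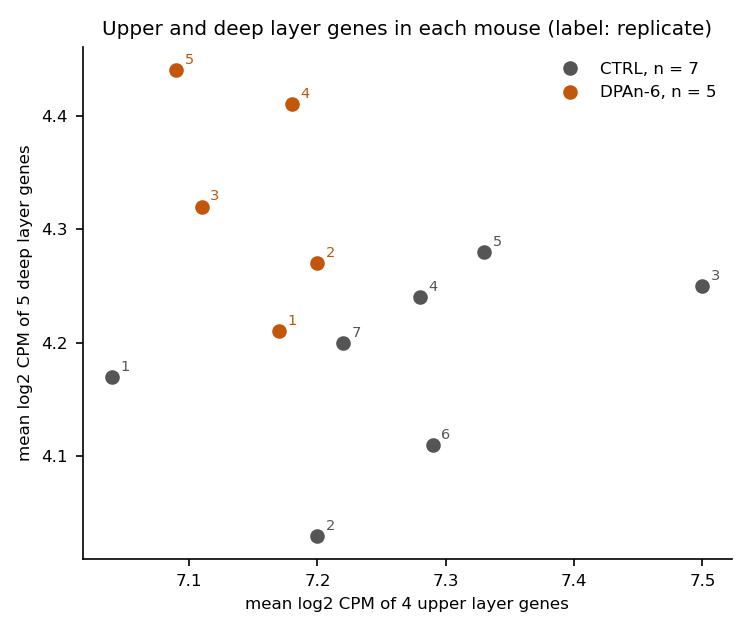
Mean log2 CPM of the 5 deep layer genes against that of the 4 upper layer genes in each mouse, with CTRL in grey (n = 7) and DPAn-6 in orange (n = 5), labelled by replicate. DPAn-6 mice lie at 7.09 to 7.20 for the upper genes and 4.21 to 4.44 for the deep genes, and CTRL replicate 3 is farthest to the right at 7.50.

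On the upper side, other genes of the same layers did not show that split. Their mean level in log2 CPM, DPAn-6 minus CTRL, was 0.05 for upper, 0.11 for layer V and 0.09 for layer VI and VIb genes. Beside these, the 4 upper members were at −0.12 and the 5 deep members at 0.14. For lists not tied to a layer it was 0.08 (general excitatory neurons), 0.09 (all neurons) and 0.11 (inhibitory neurons), close to the other deep layer genes. Of 18 other upper layer genes tested, 9 had a log2 fold change above 0 and 9 below (median 0.02), of 16 layer V genes 10 were above and 6 below (median 0.06), and of 19 layer VI and VIb genes 12 were above and 7 below (median 0.06). The same difference of deep and upper means over these genes was −0.97 ± 0.16 (SD) for the 7 CTRL mice and −0.92 ± 0.12 (SD) for the 5 DPAn-6 mice, which differed by 0.05. Among all these genes, 1 passed an adjusted p of 0.05. Inhba, which encodes the inhibin beta A subunit of activin and is induced by neuronal activity, rose from 2.27 ± 0.31 log2 CPM (SD, n = 7) to 2.98 ± 0.19 (SD, n = 5), with a log2 fold change of 0.70 (standard error 0.15, edgeR adjusted p = 0.0299). Its call was lost in 12 of 25 alternatives, among them without CTRL replicate 1, 4, 5 or 6 or without DPAn-6 replicate 1, 2, 4 or 5, with adjusted p-values over all alternatives from 0.000868 to 0.361, while its log2 fold change stayed between 0.64 and 0.87. Beside it, all 10 late-response activity genes had a log2 fold change above 0, with a median of 0.42. Of these, 5 were called higher (Bdnf, Nptx2, Vgf, Scg2 and Rgs4), beside 0.408% of all genes tested. The study had already reported Nptx2 and Vgf as increased in these data. The list was chosen with earlier results known, so its count is a description only. The part of activity in the layer genes was not tested.

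Within each layer, genes differed in direction without passing the adjusted test. In the upper layers, Scnn1a, an epithelial sodium channel subunit that marks layer IV, had a log2 fold change of −0.46 (adjusted p = 0.0921 by edgeR), and Lamp5, a lysosome-associated membrane protein, one of 0.29 (adjusted p = 0.138). Plxnd1, a semaphorin receptor, was at −0.22 (adjusted p = 0.213). In layer V, Myl4, a myosin light chain, was at 0.54 (adjusted p = 0.0764), Pcp4, a calmodulin-binding peptide, at 0.34 (0.192), Npr3, a natriuretic peptide receptor, at 0.40 (0.242) and Ptprf, a receptor tyrosine phosphatase, at −0.26 (0.24). In layer VI, Syt6, a synaptotagmin, was at 0.51 (adjusted p = 0.098), Sema3e, a secreted semaphorin, at 0.32 (0.325), Hs3st4, a heparan sulfate sulfotransferase, at 0.27 (0.323) and Svil, the actin-binding supervillin, at −0.39 (0.0871).

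Among general neuronal lists, the median log2 fold change was 0.04 for 15 excitatory neuron genes, of which 12 were above 0. It was 0.12 for 16 inhibitory neuron genes (12 above 0) and 0.1 for 12 genes of all neurons (11 above 0). In each of these lists 0 genes were called. Among other cell types and regions, genes were called in the microglia and meninges lists. The 12 microglia genes were all below 0 (median −0.48). Of these, 4 were called lower (Tmem119, Csf1r, Olfml3 and Selplg), beside 1.14% of all genes tested. The study had already reported Tmem119 as reduced in these data, and the lists were chosen with earlier results known. The mean level of the 12 microglia genes was 5.56 to 6.07 log2 CPM in CTRL against 5.15 to 5.52 in DPAn-6. The 12 meninges genes were all below 0 (median −0.61). Here 6 were called lower (Col1a2, Lum, Slc22a6, Igf2, Islr and Foxc1), beside the same 1.14%. Of the choroid plexus list, 7 of 12 genes were tested and 0 called. All 7 were below 0 (median −2.65), and 6 had an unadjusted edgeR p below 0.05, beside 14.5% of all genes. The mean level of the list ranged from 0.29 to 5.22 log2 CPM in CTRL and from 0.09 to 1.09 in DPAn-6. Its defining gene Ttr had 32 to 23880 counts per mouse. The striatum list had a median of 0.30 and 0 of 14 genes called. With Ttr as covariate none of the 9 layer genes had an unadjusted p below 0.05 (Cux1 −0.10, Rasgrf2 −0.23 and Tle4 0.11), nor with the striatum list (−0.12, −0.18 and 0.16). The 12 oligodendrocyte genes had a median of 0.21 with 0 called, and the medians were −0.16 for astrocytes, −0.06 for endothelium, −0.07 for the hippocampus, 0.00 for the thalamus and −0.02 for the claustrum and piriform areas, with 0 called in each. The thalamic marker Lhx9 had 0 to 6 counts.

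Whether layer genes varied together among mice was examined in 36 pairs with each group centred on its mean. One pair, Rorb and Rasgrf2, passed after Benjamini-Hochberg adjustment (Pearson's r = 0.839, exact permutation p = 0.00113, adjusted p = 0.0408). Spearman's rho was 0.755 (permutation p = 0.011, adjusted p = 0.132) and without centring r was 0.734 (permutation p = 0.00691, adjusted p = 0.123). With CTRL replicates 1 and 3, the 2 farthest from the Rorb median, left out, r was 0.634, and in the 14-month mice it was 0.854 (exact permutation p = 0.0444). Leaving out each mouse in turn gave r of 0.748 to 0.866, but no pair passed the adjustment without CTRL replicate 1, 2, 3, 4, 5 or 6 or without DPAn-6 replicate 1 or 5. Without DPAn-6 replicate 3 or 4, 2 and 3 pairs passed.

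Rasgrf2 and Fezf2, an upper and a deep gene, had r = 0.757 (exact permutation p = 0.00353, adjusted p = 0.062) and rho = 0.853 (permutation p = 0.00167, adjusted p = 0.0603), with r of 0.745 without the 2 farthest mice and 0.851 in the 14-month mice. Cux2 and Foxp2 ran against each other (r = −0.699, exact permutation p = 0.00517, adjusted p = 0.062; rho = −0.713, permutation p = 0.0108, adjusted p = 0.132), with r of −0.536 without the 2 farthest mice and −0.779 in the 14-month mice. Neither pair passed the adjustment.

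**Figure D4:**
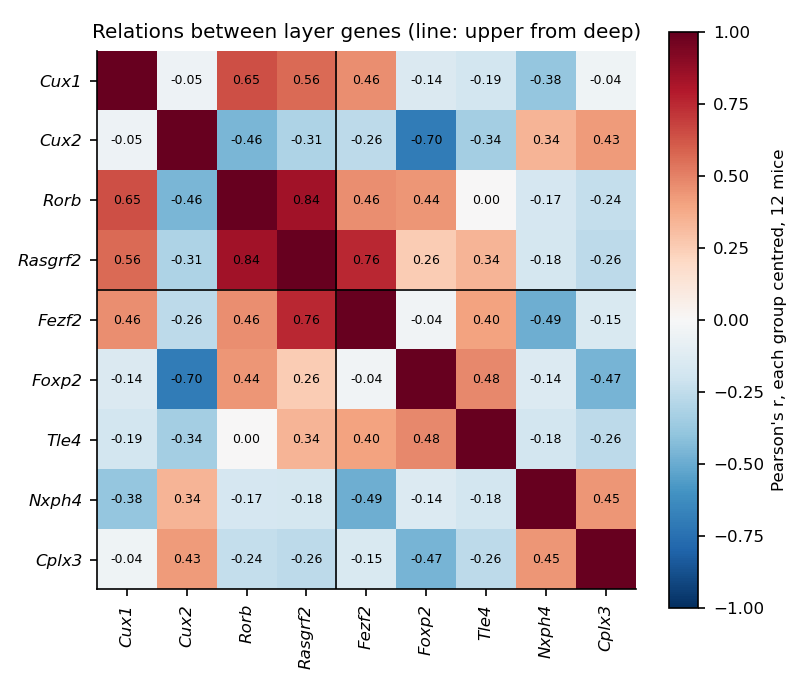
Pearson's r between each pair of layer genes over the 12 mice, with each group centred on its mean; red is positive, blue negative, and the line parts the 4 upper from the 5 deep genes. The highest value is Rorb with Rasgrf2 at 0.84 and the lowest is Cux2 with Foxp2 at −0.70.

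The start regions of Rorb and Rasgrf2 are shown because only this pair passed the adjustment above, though not by Spearman's rho or without centring. They are the 250 bases before the RefSeq start site on GRCm38.p6, minus strand, with the motifs found in them in capitals (the CCAAT box CCAAT, the GC box GGGCGG, the TATA box TATAAA, the nuclear receptor motif AGGTCA and the E-box CACGTG were searched on both strands). The Rorb region is chr19:19111197-19111446, 1 of 2 entries for the gene and the one whose start site is that of the GENCODE gene. The Rasgrf2 region is chr13:92131829-92132078, and its start site lies 172 bases from the GENCODE gene start. Sequence shortly after the start site was found in a GENCODE transcript of the gene for Rorb but in none for Rasgrf2.
Rorb: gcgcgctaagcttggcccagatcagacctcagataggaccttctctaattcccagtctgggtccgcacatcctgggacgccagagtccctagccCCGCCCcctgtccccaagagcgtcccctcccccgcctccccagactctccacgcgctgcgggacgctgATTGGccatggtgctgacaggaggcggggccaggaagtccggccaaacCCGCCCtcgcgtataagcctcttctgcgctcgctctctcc
Rasgrf2: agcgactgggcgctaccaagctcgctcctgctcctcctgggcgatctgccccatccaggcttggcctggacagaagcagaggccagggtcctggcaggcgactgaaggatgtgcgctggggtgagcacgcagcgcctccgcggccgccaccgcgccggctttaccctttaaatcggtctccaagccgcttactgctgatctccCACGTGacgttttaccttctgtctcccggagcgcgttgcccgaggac
The Rorb region held a CCAAT box at −88 and GC boxes at −156 and −40 from the start site, all on the opposite strand, and the Rasgrf2 region an E-box at −47. Over 32851 promoters of the same length, 33.8% held a CCAAT box, 32.7% a GC box, 12.4% a TATA box, 14% the nuclear receptor motif and 6.02% the E-box. These matches are a description only, and shared regulation was not tested.

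Rorb and Rasgrf2 also followed the long minus short measure of each library, defined above. For Rorb, r was 0.948 with each group centred (exact permutation p = 0.000974, adjusted p = 0.00876 over 18 relations; rho = 0.818, permutation p = 0.00262), 0.746 without the 2 farthest mice, 0.767 without CTRL replicate 3 and 0.987 in the 14-month mice. For Rasgrf2, r was 0.819 (exact permutation p = 0.000446, adjusted p = 0.00804; rho = 0.811, permutation p = 0.000804), 0.743 without the 2 farthest mice, 0.688 without CTRL replicate 3 and 0.86 in the 14-month mice. No other layer gene passed the adjustment, and Cux2 had r = −0.625 (exact permutation p = 0.0406, adjusted p = 0.183, rho = −0.49), which was −0.265 without CTRL replicate 3 and −0.324 without the 2 farthest mice. Rorb and Rasgrf2 have 11076 and 9237 exonic bases, but Cux1 with 20024 and Foxp2 with 16346 did not pass (r = 0.602 and 0.539). Without CTRL replicate 3 these were −0.0881 for Cux1 and 0.493 for Foxp2. The measure's part in the relation of Rorb with Rasgrf2 was not tested.

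**Figure D5:**
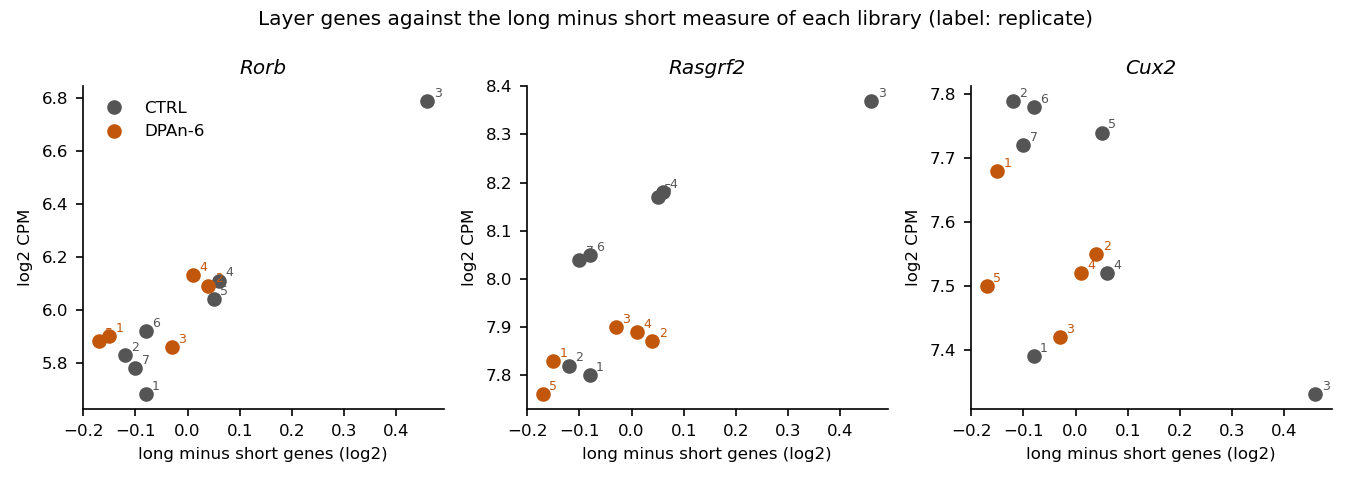
Log2 CPM of Rorb, Rasgrf2 and Cux2 against the long minus short measure of each library (log2 units), 1 point per mouse labelled by replicate, with CTRL in grey and DPAn-6 in orange. Rorb and Rasgrf2 rise along the axis (r = 0.948 and 0.819 with each group centred), Cux2 has r = −0.625 (−0.265 without CTRL replicate 3), and CTRL replicate 3 stands alone at 0.46.

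The genes most like each layer gene over the 12 mice, by r with each group centred among 10596 genes with a mean of at least 3 log2 CPM, are given as a description. Rorb was nearest to Zfp451 (r = 0.98), Scn3b (0.97) and Celf2 (0.97), and Rasgrf2 to Tshz3 (0.96), Nrg3 (0.95) and Nova1 (0.95). Foxp2 was nearest to Agps (0.94), Sccpdh (0.91) and Syt6 (0.91), the last itself a layer VI gene. Cux1 was nearest to Magi1 (0.93), Dusp7 (0.91) and Cep135 (0.90), and Cux2 to Lmtk3 (0.92), Car7 (0.92) and Cnppd1 (0.91). Fezf2 was near to Tada2b (0.93) and Inpp1 (0.93), Tle4 to Tarsl2 (0.91), Poc5 (0.90) and Ube4b (0.89), Cplx3 to Cdkn1c (0.95) and Gsta4 (0.94), and Nxph4 to Rpain (0.84), Rdh10 (0.81) and Xrcc6 (0.80). No layer gene was among the 3 nearest of another.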

How the data were processed

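The authors aligned poly(A)-selected libraries with STAR (2.5.3a per the labels) to GRCm38 and deposited the resulting gene counts without scaling. The strand setting of the counting is not given in the sources used here. Counts were matched to GENCODE names for 50339 of 50563 genes. They were tested with edgeR 4.0.16 (R 4.3.3; TMM, filterByExpr, quasi-likelihood, Benjamini-Hochberg over 15688 genes), where the study names limma-voom, which was run as an alternative with limma 3.58.1, as was DESeq2 1.42.0. The test was checked on simulated data. Single genes were compared by two-sided exact permutation of log2 CPM. Relations with the groups centred used exact permutation within groups in place of the planned 100000 resamples, which served the pooled relations. Other alternatives were sample weights, no TMM, other filters on low counts, age, Xist, the striatum list or Ttr as covariate, 14-month mice only, a replicate block, each mouse left out, a pseudocount of 2 and, chosen after seeing the data, removal of each library's trend on exonic length. The cell type and region lists are described by counts. The layer genes and lists were chosen with earlier results of these data known. Named genes are the 9 layer genes, other layer genes called or with the 4 lowest p-values of their list, the 3 nearest genes of each layer gene, and, of region and cell type lists, the genes called or highest. Some genes that this rule names are not reported here. Mice are separate animals. No mouse was left out of the reported values.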

Additional observations from a re-analysis of the deposited data

Results flagged for a closer look

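In a search of 22 groups of values for a mouse far from its group (Dixon's ratio), where chance gives about 1 in 20, there were 2. Rorb in CTRL replicate 3 measured 6.79 log2 CPM, against 5.68 to 6.11 in the other 6 CTRL mice. Tle4 in CTRL replicate 2 measured 5.52 log2 CPM, against 5.92 to 6.13 in the other 6, and that mouse also had the lowest Foxp2 and Fezf2 of its group.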

How the results depend on the processing

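None of the 9 layer genes was called under any of the 25 alternatives. Over all genes, 243 were called, with 671 by DESeq2, 1267 by limma-voom with sample weights, 17 with Ttr as covariate, 9 in the 14-month mice and 69 with the replicate block. Leaving out each mouse gave 64 (without DPAn-6 replicate 3) to 953 (without CTRL replicate 3), and moved the count by over 1.5 times for each mouse but CTRL replicates 5 and 7. Layer genes with an unadjusted p below 0.05 numbered 3, with 0 under either covariate (the striatum list or Ttr), 1 among 14-month mice, 1 with the replicate block and 0 to 3 with each mouse left out. The related pairs numbered 1, with 0 without centring, 0 by Spearman's rho, 0 in the 14-month mice and 0 to 3 with each mouse left out. The log2 fold change of Cux1 was 0.02 with the length trend removed. That of Rorb was 0.07 with sample weights, 0.02 with the striatum list, 0.02 with Ttr, 0.01 with the length trend removed and −0.15 to 0.07 with each mouse left out, and that of Fezf2 was −0.04 in the 14-month mice, where its difference of means was −0.03. The cause was not tested. The difference of deep and upper means stayed at 0.22 to 0.30 in its 14 alternatives. Replicate numbers 1, 3 and 4 join mice of different ages, so the numbers are not matched by age. Correlations of deviations between mice of the same number were −0.12 to 0.22 over 5 numbers, which cannot settle whether mice were paired. The block is given as a count only. Nxph4, with 44 to 124 counts, is limited by depth.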
